A study of Mus musculus with 10 samples.

Results

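A set of 10 genes of the p53 response was read in *Max*-null mouse embryonic stem cells (ESCs): *Trp53*, which encodes p53, and its target genes *Mdm2*, *Cdkn1a*, *Ccng1*, *Bbc3*, *Pmaip1*, *Bax*, *Perp*, *Zmat3* and *Sesn1*. A gene was represented by the array probe sets that the platform annotation pairs with its symbol and no other. Of the 10 genes, 8 had such probe sets, 16 in all of the 45037 tested. *Trp53* and *Bax* had none in the annotation used and were not analysed here. Where a gene had several probe sets, its brightest one was taken for counts of genes, and every probe set is described below.

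p53 is a transcription factor that is held at a low level in unstressed cells by MDM2, a ubiquitin ligase that marks it for destruction and is itself a p53 target. DNA damage and other stresses release p53, which then switches on genes for cell-cycle arrest, apoptosis, DNA repair and metabolic adjustment. ESCs lack a firm G1 checkpoint and are prone to apoptosis when p53 is activated. MAX, the protein removed in this experiment, pairs with MYC proteins on E-box sequences and also belongs to a variant Polycomb complex.

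RNA was measured on 10 Affymetrix expression arrays of male 129SV ESCs in which both endogenous copies of *Max* are disrupted, so that the cells live on a *Max* cDNA placed at the *ROSA26* locus under a tetracycline-off system. Doxycycline (Dox) switches that cDNA off. In medium with leukaemia inhibitory factor (LIF) and serum, a first set held an untreated array and 1 array each after 1, 2, 3 and 4 d of Dox, and a second set held another untreated array and 1 array each after 6 and 8 d. In 2i+LIF, a medium with inhibitors of MEK and GSK3β, 1 array came from cells kept 6 d without Dox and 1 from cells kept 6 d with it. Untreated and treated cells shared the disrupted gene and the cDNA, so no array came from wild-type cells. No source names separate cultures or clones behind the arrays, and no LIF+serum array repeats the set and day of another. The p-values therefore rest on the scatter around a fitted slope or step. That scatter can hold change over time as well as array-to-array spread, which may be purely technical.

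The values were log2 signals from robust multi-array analysis (RMA), with array medians of 5.26 to 5.33 in LIF+serum and of 5.14 and 5.16 in 2i+LIF. No source states which arrays had been normalized together. The 8 ESC markers averaged 11.3 to 11.8 on every array against 6.47 to 6.55 for all 18193 genes, and *Pou5f1* stayed between 11.9 and 12.8 in LIF+serum. Of these markers *Nanog* and *Klf4* rose and *Utf1* and *Lin28a* fell with days of Dox at an adjusted p under 0.05 (limma). The lists of fibroblast (8 genes), primitive endoderm (7), trophectoderm (6) and mesoderm (5) markers averaged between 4.00 and 6.08, below that mean on every array. None of these marker genes passed the test for a slope over days of Dox with limma, and 3 of them, *Sox7*, *Tfap2a* and *Krt18*, had an unadjusted p under 0.05. The array at Dox 8 d carried the highest mean of the fibroblast (4.89), primitive endoderm (5.34) and trophectoderm (6.08) lists. The ratio of the 3′ to the 5′ control probe set of beta-actin, which grows as RNA degrades, was 0.41 on the log2 scale in the first untreated array, 0.52 to 0.56 at 1 to 4 d and, in the second set, 0.88 untreated, 1.46 after 6 d and 1.22 after 8 d. It was 0.78 and 0.76 in 2i+LIF. The same ratio for *Gapdh* was -0.03 untreated and -0.08 at 4 d in the first set. In the second set the *Gapdh* ratio was 0.12 untreated, 0.09 after 6 d and 0.05 after 8 d, so it did not rise there. In 2i+LIF it was -0.12 without and -0.09 with Dox. The probe set of *Max* lay at 5.57 untreated and 5.20 at 4 d in the first set, and at 5.74 untreated and 6.19 at 8 d in the second. Its position relative to the disruption and to the cDNA is unknown here, so it does not check the labels.

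The promoters of 5 of the 8 genes were in the RefSeq promoter table (mouse build GRCm38.p6), as 9 windows of 300 bases that run from 250 before to 50 after an annotated start. *Perp*, *Zmat3* and *Pmaip1* were not in it. Both strands were searched for the E-box CACGTG, for the p53 half-site consensus and for TATAAA. The half-site was present in 4 windows, 1 each of *Cdkn1a*, *Mdm2*, *Ccng1* and *Sesn1*, and in 8.36% of all 32851 promoter windows. The E-box was present in 1 window, of *Bbc3*, and in 7.15% of all windows. TATAAA was in none of the 9 and in 13.6% of all. A match is a description of these letters and not evidence of binding. Windows with a half-site are printed for *Cdkn1a* (chr17:29090729-29091028, plus strand), whose matches start 73 and 51 bases before the annotated start, for *Mdm2* (chr10:117710709-117711008, minus strand), whose match starts 186 bases before it, and for *Sesn1* (chr10:41887189-41887488, plus strand), whose match starts 173 bases before it, because these genes carry the feedback arm and 2 of the rises described below. The *Bbc3* window (chr7:16310181-16310480, plus strand) is printed for its E-box, 64 bases before the start, the sequence on which MAX is known to sit. All run 5′ to 3′ on the strand of the gene, and capitals mark the half-site or, in *Bbc3*, the E-box.
Cdkn1a: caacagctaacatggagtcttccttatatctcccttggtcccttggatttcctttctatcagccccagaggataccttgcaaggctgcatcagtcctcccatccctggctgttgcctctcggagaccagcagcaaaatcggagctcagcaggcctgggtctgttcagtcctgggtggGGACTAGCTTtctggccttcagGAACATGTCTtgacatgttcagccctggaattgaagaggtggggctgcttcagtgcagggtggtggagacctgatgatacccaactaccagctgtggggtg
Mdm2: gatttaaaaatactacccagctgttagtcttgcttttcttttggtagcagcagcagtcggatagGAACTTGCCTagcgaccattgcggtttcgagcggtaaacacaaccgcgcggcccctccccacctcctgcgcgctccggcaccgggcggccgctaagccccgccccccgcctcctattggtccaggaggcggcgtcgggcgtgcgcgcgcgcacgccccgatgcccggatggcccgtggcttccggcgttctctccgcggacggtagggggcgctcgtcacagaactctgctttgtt
Sesn1: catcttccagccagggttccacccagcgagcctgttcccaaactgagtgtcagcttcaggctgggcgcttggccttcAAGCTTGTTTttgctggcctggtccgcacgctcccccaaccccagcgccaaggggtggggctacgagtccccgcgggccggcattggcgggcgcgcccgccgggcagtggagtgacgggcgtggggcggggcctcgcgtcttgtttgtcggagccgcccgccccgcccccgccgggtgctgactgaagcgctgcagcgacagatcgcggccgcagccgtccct
Bbc3: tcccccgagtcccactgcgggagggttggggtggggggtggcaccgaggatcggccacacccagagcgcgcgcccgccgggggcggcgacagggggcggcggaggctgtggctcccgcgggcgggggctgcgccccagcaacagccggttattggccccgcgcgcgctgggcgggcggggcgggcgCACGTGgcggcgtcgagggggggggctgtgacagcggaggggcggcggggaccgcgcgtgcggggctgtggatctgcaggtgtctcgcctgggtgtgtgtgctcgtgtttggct

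The p53 target genes did not move as a block when *Max* was switched off. Over 8 d of Dox in LIF+serum, the signals of *Pmaip1*, *Cdkn1a* and *Sesn1* rose, and none of the 8 genes fell past the test. *Pmaip1* gained 0.36 ± 0.07 per day on the log2 scale (SE, 8 arrays), *Cdkn1a* 0.16 ± 0.03 and *Sesn1* 0.15 ± 0.04. *Mdm2* stood above the untreated array of its own set on all 6 Dox arrays without passing the test, and *Bbc3*, *Perp* and *Zmat3* had slopes below 0 that did not pass it either. In 2i+LIF the order was different: *Pmaip1* and *Ccng1* were more than 2-fold dimmer after 6 d of Dox than without it.

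The slopes come from limma, fitted to all probe sets over the 8 LIF+serum arrays adjusting for array set, and a gene is said to rise or fall at a Benjamini-Hochberg adjusted p under 0.05 over all probe sets. By this rule 3 of the 8 genes rose, against 5.75% of all 18193 genes, and 0 fell, against 5.33%. At an unadjusted p under 0.05, limma placed 3 of the 8 (*Bbc3*, *Perp* and *Zmat3*) among those with a slope below 0, where 14.8% of all genes stood. The median slope was 0.09 per day over the 8 genes and -0.01 over all genes. Of the 16 probe sets 5 rose, against 4.77% of all probe sets. A second limma fit compared all Dox arrays with the untreated arrays, again adjusting for array set, and 1 of the 8 genes (*Pmaip1*) was higher, against 2.11% of all genes, and 0 were lower, against 1.52%, with *Bbc3* lower at an unadjusted p of 0.0232 (15.0% of all genes were lower at an unadjusted p under 0.05). In the fit to both array sets, the calls depended on the second untreated array. Without it 0 of the 8 genes rose in limma at the adjusted threshold. At an unadjusted p under 0.05 in that limma fit, 3 (*Pmaip1*, *Ccng1* and *Cdkn1a*) had a slope above 0. None of the other p53 targets and regulators described below passed without that array in the fit to both sets either. The share of all genes in that fit is not given here. Its slopes were 0.58 for *Pmaip1*, 0.15 for *Cdkn1a* and 0.07 for *Sesn1*. The first set alone also lacks that array, and there *Pmaip1* rose, by 0.68 per day, while *Cdkn1a* and *Sesn1* did not pass. Of the other targets, *Trp53inp1*, *Ddb2*, *Rrm2b* and *Pltp* rose in the first set alone and *Sfn*, *Siva1* and *Tigar* fell. Of the regulators, *Atm*, *Atr*, *Prkdc* and *Sirt1* rose in it. With the beta-actin ratio as a further covariate over the 8 arrays, the slopes of *Pmaip1*, *Cdkn1a* and *Sesn1* were 0.33, 0.19 and 0.14. None of these passed (adjusted p = 0.394, 0.319 and 0.542 in limma). In that fit 2 of the 8 genes had a slope above 0 at an unadjusted p under 0.05, with *Cdkn1a* at 0.00541 (limma). None of the other p53 targets and regulators described below passed in it either, and its share of all genes is not given here. The beta-actin ratio moved with days of Dox in the second set, and its part in the slopes was not otherwise tested. In bulk RNA of this kind, a change in the share of cells that express a gene and a change in RNA per cell cannot be told apart.

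**Figure D1:**
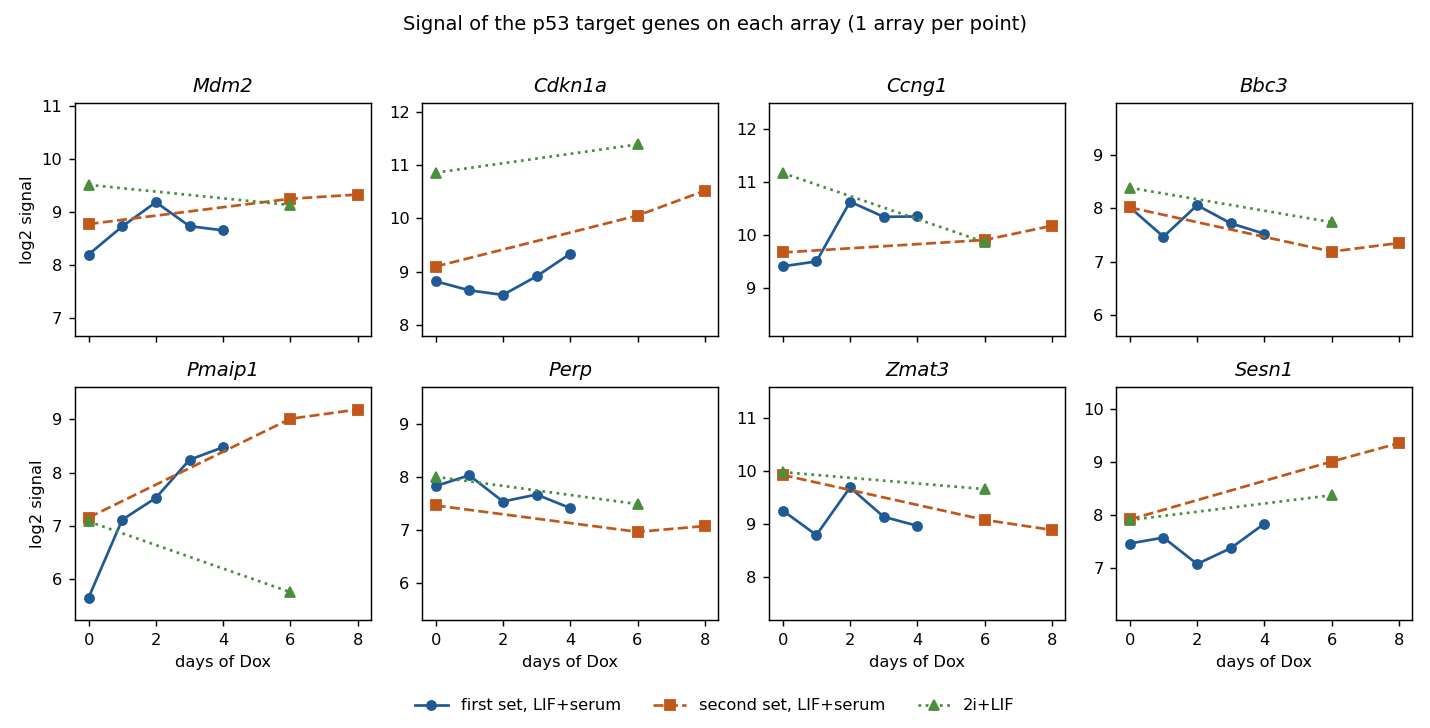
Log2 signal of the 8 measured p53 target genes (brightest probe set) against days of Dox, 1 point per array; circles are the first LIF+serum set, squares the second and triangles 2i+LIF, and each panel spans the same range of log2 units. *Pmaip1* climbs in both LIF+serum sets, from 5.64 to 8.48 and from 7.15 to 9.19, and drops from 7.08 to 5.75 in 2i+LIF.

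**Figure D2:**
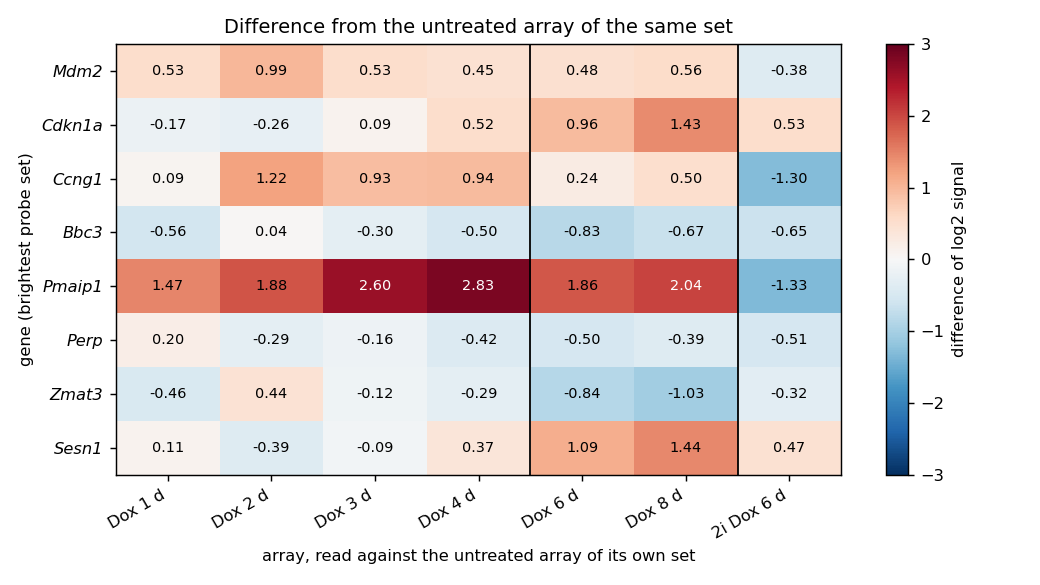
Difference of log2 signal between each Dox array (columns, split by array set) and the untreated array of its own set, for the 8 genes (rows, brightest probe set), with 1 array per column. *Mdm2*, *Ccng1* and *Pmaip1* are above 0 on all 6 LIF+serum Dox arrays and below 0 in 2i+LIF.

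*Mdm2*, the feedback inhibitor of p53, was read from 3 probe sets. The brightest gave 8.19 in the first untreated array and 8.72, 9.18, 8.73 and 8.65 after 1, 2, 3 and 4 d of Dox, then 8.77 in the second untreated array and 9.24 and 9.32 after 6 and 8 d. All 6 Dox arrays were above the untreated array of their set, but those at 1, 3 and 4 d were not above the untreated array of the other set. The folds were 1.44, 1.98, 1.45 and 1.37 at 1 to 4 d and 1.39 and 1.47 at 6 and 8 d, so the highest value of the first set came at 2 d. The slope was 0.08 ± 0.04 per day (adjusted p = 0.262, limma). The step with Dox was 0.58 ± 0.17 on the log2 scale (adjusted p = 0.0887, limma), with 0.63 within the first set and 0.52 within the second. The next probe set showed the same direction, above its untreated array on 6 of 6 Dox arrays, with folds of 1.10 to 1.63 and a step of 0.38 (adjusted p = 0.217, limma). The untreated arrays of the 2 sets differed in opposite directions on these probe sets, by 0.57 on the brightest and by -0.47 on the next. The last was dim, between 3.11 and 3.65 in LIF+serum, and had a step of 0.02.

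*Cdkn1a* encodes p21, the cyclin-dependent kinase inhibitor through which p53 halts the cell cycle. Its brightest probe set gave 8.82 untreated and 8.65, 8.56, 8.91 and 9.34 at 1 to 4 d, then 9.09 untreated and 10.05 and 10.52 at 6 and 8 d. The first 2 d of Dox lay below the untreated array, and 4, 6 and 8 d lay above both untreated arrays. The folds ran 0.889, 0.837, 1.07 and 1.43 in the first set and 1.95 and 2.69 in the second. The slope of 0.16 per day (adjusted p = 0.0148, limma) was 0.13 within the first set and 0.17 within the second. Its step with Dox was 0.57 (adjusted p = 0.282, limma), with the early arrays on both sides of untreated. The other probe set was lower than untreated at 1, 2 and 3 d, with folds of 0.678, 0.759 and 0.822, and reached 2.50-fold at 8 d, for a slope of 0.13 (adjusted p = 0.0781, limma). The *Cdkn1a* slope kept its direction in all 17 alternatives and passed in 14 of them, but in the first set alone it did not (adjusted p = 0.331, limma), nor without the second untreated array (adjusted p = 0.365, limma) or with the beta-actin ratio. The LIF+serum arrays with the highest *Cdkn1a* signal, at 6 and 8 d, were also those with the largest beta-actin 3′ excess, and its part in the rise beyond the fit with that covariate was not tested. At 8 d, 15 of 25 marker genes of other cell types were above and 10 below the untreated array, with folds from 0.631 (*Sox7*) to 6.21 (*Krt18*) and a median of 1.26, and 6 were at least 2-fold above, among them *Foxa2* at 4.64-fold and *Gata6* at 4.18-fold; their part in the rise was not tested.

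*Ccng1*, which encodes cyclin G1, a p53-induced cyclin linked to MDM2 regulation, was read from 3 bright probe sets that did not agree. The brightest gave 9.41 untreated and 9.50, 10.63, 10.34 and 10.35 at 1 to 4 d, then 9.67 untreated and 9.91 and 10.18 at 6 and 8 d. Against untreated it stood at 1.07-fold on day 1, 2.33-fold on day 2, 1.91- and 1.92-fold on days 3 and 4, and 1.18- and 1.42-fold on days 6 and 8. Its slope was 0.11 ± 0.05 per day (adjusted p = 0.232, limma) and its step 0.60 (adjusted p = 0.229, limma). The second probe set had folds of 0.934, 1.15, 0.822, 0.797, 0.463 and 0.929 in the order of the days, above the untreated array on 1 of 6, and a slope of -0.06 (adjusted p = 0.506, limma). The third was 1.85-fold at 2 d and between 0.894-fold and 1.27-fold at the other times, with a slope of 0.04. All 3 had their highest fold at 2 d, while they differed in the direction of the slope.

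*Bbc3*, *Pmaip1* and *Perp* belong to the apoptotic arm. *Bbc3* encodes PUMA and *Pmaip1* encodes NOXA, which neutralize the survival proteins of the BCL2 family, and *Perp* encodes a membrane protein of desmosomes that can promote apoptosis. They did not move together. *Pmaip1* (1 probe set) gave 5.64 untreated and 7.11, 7.52, 8.24 and 8.48 at 1, 2, 3 and 4 d, then 7.15 untreated and 9.01 and 9.19 at 6 and 8 d. Each further day brought a higher value in both sets, and 5 of the 6 Dox arrays were above both untreated arrays, while 1 d was level with the second untreated array. The 2 untreated arrays differed by 2.84-fold, more than on any other of the 8 genes. Against their own untreated array, the Dox arrays were 2.77-, 3.68-, 6.05- and 7.13-fold at 1 to 4 d and 3.64- and 4.10-fold at 6 and 8 d. The slope was 0.36 per day (adjusted p = 0.0134, limma), 0.68 within the first set and 0.27 within the second. The step with Dox was 2.08 ± 0.33 (adjusted p = 0.0398, limma), 2.19 within the first set and 1.95 within the second. The slope passed in 15 of 17 alternatives, failing without the second untreated array (adjusted p = 0.245, limma) and with the beta-actin ratio in the fit. The step passed in 8 of 16 and failed without 3, 6 or 8 d, without either untreated array, in the first set alone, without the array set term and with the beta-actin ratio; its size lay between 1.86 and 2.26 in these. In the first set, the beta-actin ratio went from 0.41 to 0.56 between the untreated array and 1 d, where *Pmaip1* made its largest single step, from 5.64 to 7.11, and lay between 0.52 and 0.56 from 1 to 4 d. Its part in the rise beyond the fit with that covariate was not tested.

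*Bbc3* went the other way. It gave 8.02 untreated and 7.47, 8.06, 7.72 and 7.52 at 1 to 4 d, then 8.02 untreated and 7.19 and 7.35 at 6 and 8 d. Its untreated arrays were level with each other, and 5 of the 6 Dox arrays were below both. The folds were 0.681, 1.03, 0.811 and 0.707 in the first set and 0.562 and 0.629 in the second, a slope of -0.09 ± 0.04 per day that did not pass (adjusted p = 0.147, limma). *Perp* gave 7.83 untreated and 8.03, 7.54, 7.67 and 7.42 at 1 to 4 d, then 7.47 untreated and 6.97 and 7.08 at 6 and 8 d. It was below its own untreated array on 5 of 6 Dox arrays, with folds down to 0.709 at 6 d, and its slope was -0.07 ± 0.03 (adjusted p = 0.179, limma).

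*Zmat3*, which encodes an RNA-binding zinc-finger protein that acts in splicing and tumour suppression downstream of p53, gave 9.25 untreated and 8.79, 9.69, 9.14 and 8.97 at 1 to 4 d. In the second set it gave 9.92 untreated and 9.08 and 8.89 at 6 and 8 d. The array at 2 d lay between the untreated arrays and the other 5 Dox arrays below both, with folds of 0.557 and 0.488 at 6 and 8 d. The slope of -0.11 ± 0.04 did not pass (adjusted p = 0.153, limma) and was -0.02 within the first set and -0.13 within the second.

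*Sesn1* encodes sestrin 1, a stress protein that restrains mTORC1 and limits oxidative damage. Its brightest probe set gave 7.47 untreated and 7.58, 7.08, 7.38 and 7.84 at 1 to 4 d, then 7.92 untreated and 9.01 and 9.36 at 6 and 8 d. The first set stayed around its untreated array, and the rise sits at 6 d (2.13-fold) and 8 d (2.71-fold). The slope of 0.15 per day (adjusted p = 0.0369, limma) was 0.05 within the first set and 0.18 within the second. A further 2 probe sets rose as well, by 0.17 (adjusted p = 0.0285, limma) and 0.22 (adjusted p = 0.0086, limma) per day, and these were 2.79-fold and 3.96-fold at 8 d. The fourth was dim, between 3.52 and 3.86, and had a slope of -0.01. The call on the brightest probe set held in 10 of 17 alternatives. It was lost without the array at 4, 6 or 8 d (adjusted p = 0.093, 0.0754 and 0.109, limma), without the second untreated array (adjusted p = 0.691, limma), in the first set alone (adjusted p = 0.743, limma), with log2(day + 1) in place of the day (adjusted p = 0.0776, limma) and with the beta-actin ratio. As for *Cdkn1a*, the arrays that carry the rise are those with the largest beta-actin 3′ excess.

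**Figure D3:**
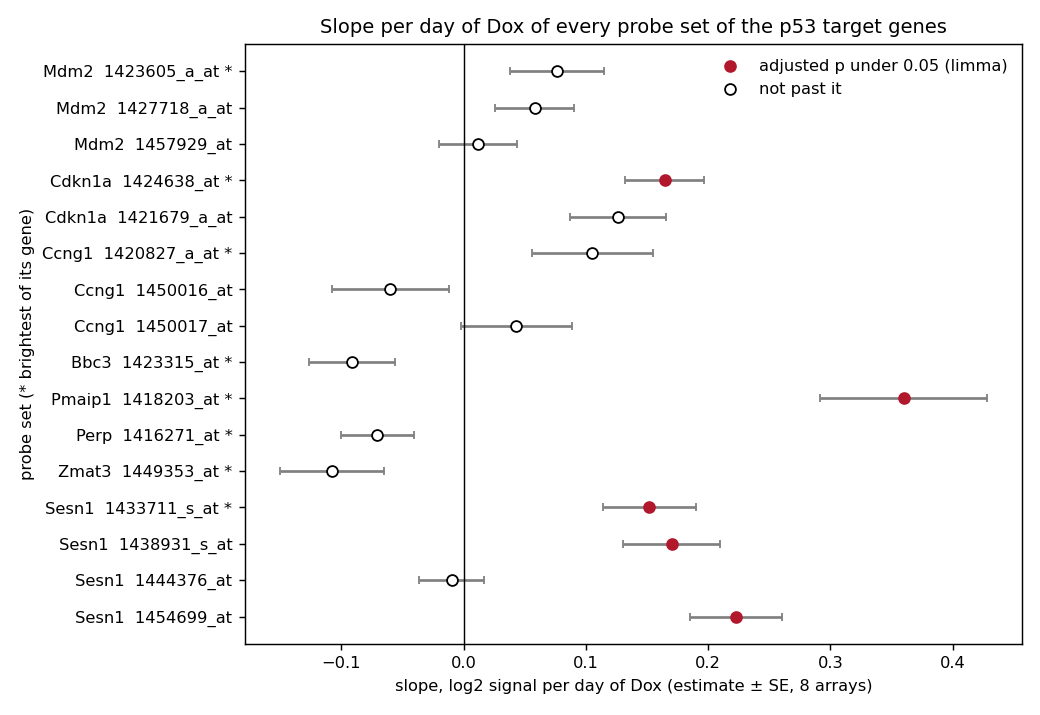
Slope of log2 signal per day of Dox (x axis, estimate ± SE from limma over the 8 LIF+serum arrays) for the 16 probe sets of the 8 genes (y axis); filled points have an adjusted p under 0.05 and a star marks the brightest probe set of a gene. The steepest is *Pmaip1* at 0.36, 3 of 4 *Sesn1* probe sets and 1 of 2 *Cdkn1a* probe sets are filled, and the *Ccng1* probe sets lie on both sides of 0.

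In 2i+LIF there was 1 array with and 1 without Dox, so these differences have no replicate check. *Pmaip1* was 7.08 without and 5.75 with Dox, a fold of 0.398. *Ccng1* was 11.17 without and 9.87 with Dox, a fold of 0.406, and its other probe sets gave 0.727 and 0.446. These were the genes past 2-fold, 2 of 8 lower against 2.42% of all genes, and 0 of 8 were at least 2-fold higher against 1.75%. *Bbc3* (8.39 and 7.74, 0.638-fold), *Perp* (8.01 and 7.49, 0.700-fold), *Mdm2* (9.51 and 9.13, 0.768-fold) and *Zmat3* (9.98 and 9.66, 0.801-fold) were also lower, whereas *Cdkn1a* (10.86 and 11.39, 1.45-fold) and *Sesn1* (7.91 and 8.38, 1.38-fold) were higher. The median difference over the 8 genes was -0.45 on the log2 scale, and over all genes 0.02. The beta-actin ratio was nearly the same on both arrays. By the brightest probe set, *Mdm2*, *Ccng1* and *Pmaip1* (3 of 8) were above untreated on all 6 LIF+serum Dox arrays and below it in 2i+LIF, as were 5.92% of all genes, and 0 of 8 showed the reverse, as did 10.7%. The other *Ccng1* probe sets were above untreated on 1 and 4 of the 6 arrays, and the other *Mdm2* probe sets on 6 and 2.

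Whether Dox acted differently in the 2 media was tested with an interaction term in a limma fit over all 10 arrays, a fit added after the data were seen. No probe set passed (0 of 45037 called, 4218 at an unadjusted p under 0.05). *Pmaip1* had the largest term of the 8 genes, -3.41 ± 0.65 (unadjusted p = 0.000457, adjusted p = 0.252, limma). Those of *Ccng1* (-1.90, unadjusted p = 0.00646, adjusted p = 0.373, limma) and *Mdm2* (-0.96, unadjusted p = 0.0187, adjusted p = 0.434, limma) were also below an unadjusted p of 0.05, and the other 5 were not, against 11.5% of all genes. The 2 arrays in 2i+LIF are fitted exactly in it, so the SE and p-values rest on the LIF+serum arrays and hold no spread within 2i+LIF. These terms are those of the brightest probe sets. The other probe sets had terms of -0.11 and -1.39 for *Ccng1* and of -0.82 and -0.20 for *Mdm2*. Medium, culture time and array set cannot be told apart in the interaction term.

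Before Dox, *Cdkn1a*, *Ccng1*, *Mdm2*, *Bbc3*, *Perp* and *Zmat3* were read higher in 2i+LIF than on either untreated LIF+serum array. Of these, *Cdkn1a*, *Ccng1* and *Mdm2* had the largest folds. The share of all genes read higher in this way is not given here. The untreated 2i+LIF array had *Cdkn1a* at 4.13-fold of the first and 3.41-fold of the second untreated LIF+serum array, and its other probe set at 10.4-fold and 7.74-fold. *Ccng1* was 3.38-fold and 2.82-fold and *Mdm2* 2.48-fold and 1.67-fold. *Pmaip1* was 2.70-fold of the first and 0.951-fold of the second, and its level in 2i+LIF lay within the spread of the untreated arrays. *Bbc3* was 1.29-fold of both, *Perp* 1.13-fold and 1.45-fold, *Zmat3* 1.65-fold and 1.04-fold and *Sesn1* 1.36-fold and 0.993-fold. These folds cross array sets that may have been normalized separately, and no test was made of them.

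The genes that regulate p53 were counted from a list of 22 measured genes, and with the p53 relatives *Trp63* and *Trp73* it covers the kinases, acetylases, ubiquitin ligases and deubiquitinases around p53. By slope, 2 of the 22 regulators rose, against 5.75% of all genes, and 2 fell, against 5.33%. By the step with Dox 3 (*Atm*, *Atr* and *Sirt1*) were higher, against 2.11%, and 0 were lower, against 1.52%. Neither relative passed by its brightest probe set (limma, unadjusted p = 0.722 and 0.137). Of the 2 probe sets of *Trp73*, the dimmer 1 fell by slope and was lower by the step. *Trp73* was also lower by the step in the mean of its probe sets. *Atr*, the kinase that senses stalled replication, went from 6.59 untreated to 7.46, 8.41, 8.29 and 9.11 at 1 to 4 d, and from 7.80 to 9.80 and 9.33 at 6 and 8 d, a slope of 0.31 ± 0.07 (adjusted p = 0.0236, limma). Of its 3 probe sets 1 rose, and all 3 had slopes above 0. *Sirt1*, a deacetylase of p53, went from 8.21 to 9.34, 9.44, 9.76 and 10.07 and from 9.35 to 10.83 and 10.44, a slope of 0.22 ± 0.05 (adjusted p = 0.0357, limma). Both were above their untreated array on all 6 Dox arrays, and the slope passed in 12 of 17 alternatives for *Atr* and in 9 of 17 for *Sirt1*. The step with Dox was 1.75 for *Atr* (adjusted p = 0.0434, limma) and 1.37 for *Sirt1* (adjusted p = 0.0398, limma). It passed in 5 of 16 alternatives for *Atr* and in 9 of 16 for *Sirt1*. *Chek2*, a checkpoint kinase downstream of ATM, fell by 0.27 ± 0.04 per day on the log2 scale (adjusted p = 0.00652, limma), with 8.32 untreated and 8.12, 8.44, 7.79 and 7.38 at 1 to 4 d, and 8.96 untreated and 6.73 and 6.85 at 6 and 8 d. *Kat5*, the TIP60 acetyltransferase, fell by 0.13 ± 0.03 (adjusted p = 0.0153, limma) and was below its untreated array on all 6. *Atm*, the double-strand break kinase, had a slope of 0.18 on its brightest probe set that did not pass (adjusted p = 0.0835, limma) and a step with Dox of 1.15 ± 0.26 that did (adjusted p = 0.0492, limma). Of its 2 probe sets 1 rose by slope and both were higher by the step. The *Atm* step passed in 4 of 16 alternatives and was lost on leaving out any one of 2, 3, 4, 6 or 8 d or either untreated array. *Prkdc*, the DNA-dependent protein kinase, had a slope of 0.17 (adjusted p = 0.218, limma), with 4.58-fold at 4 d against only 1.15-fold by 8 d. *Mdm4*, the partner of MDM2 that also restrains p53, was above its untreated array on all 6 Dox arrays by its brightest probe set. Neither the slope of 0.08 (adjusted p = 0.402, limma) nor the step of 0.75 (adjusted p = 0.0844, limma) passed there. Of its 4 probe sets 1 was higher by the step, and 2 had a slope above 0. The count of regulators that rose was 0 without the second untreated array, without 4 d or without 6 d, 1 without 1 d or 3 d and 4 without 8 d; the count that fell was 0 without the second untreated array.

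Of 43 other measured p53 targets, 4 rose and 1 fell by slope, against 5.75% and 5.33% of all genes. By the step with Dox 4 were higher, against 2.11%, and 0 lower, against 1.52% (limma, with 9 lower at an unadjusted p under 0.05, against 15.0%). Their median slope was 0.01 per day, against 0.09 for the 8 genes above. None of the 13 cell cycle and signalling targets passed, with 2 on each side of 0 at an unadjusted p under 0.05 in limma, against 13.2% of all genes above 0 and 14.8% below. Among these, *Plk2*, a polo-like kinase, moved from 0.661-fold at 4 d to 3.77-fold at 8 d, and *Btg2*, an antiproliferative gene, 0.873-fold and 2.62-fold, neither past the test (adjusted p = 0.238 and 0.0971, limma), and *Rb1*, the retinoblastoma gene, had a slope of 0.11 (adjusted p = 0.176, limma). Of the 2 probe sets of *Plk2* 1 had a slope above 0, while both did for *Btg2* and for *Rb1*. The second untreated array had *Plk2* at 0.678-fold of the first.

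Among 12 cell death targets 2 rose. *Trp53inp1*, a stress-induced cofactor of p53, went from 7.70 to 8.43, 9.79, 9.51 and 9.89 at 1 to 4 d and from 8.86 to 10.38 and 10.22 at 6 and 8 d, a slope of 0.27 ± 0.07 (adjusted p = 0.0392, limma) and a step of 1.58 (adjusted p = 0.0471, limma) that passed in 5 of 16 alternatives. The *Trp53inp1* slope passed in 10 of 17 alternatives and on 1 of its 2 probe sets. *Apaf1*, which forms the apoptosome, rose by 0.11 ± 0.03 per day (adjusted p = 0.0406, limma), which passed in 7 of 17 alternatives and on 1 of its 2 probe sets. Both probe sets of each gene had slopes above 0. The death receptor gene *Fas* stayed dim, between 3.79 and 4.07 in LIF+serum.

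Among 18 repair and metabolism targets 2 rose and 1 fell. *Ddb2*, a damage sensor of nucleotide excision repair, went from 6.14 to 6.61, 7.00, 7.16 and 7.53 and from 7.43 to 8.85 and 8.85, a slope of 0.22 ± 0.03 (adjusted p = 0.00595, limma), and it was the one riser among these targets that was also higher with Dox in 2i+LIF, at 1.86-fold. *Rrm2b*, the p53-induced ribonucleotide reductase subunit, rose by 0.25 ± 0.06 per day (adjusted p = 0.0323, limma), and all 4 of its probe sets rose. *Polk*, a translesion polymerase, passed by the step alone, at 0.79 ± 0.17 (adjusted p = 0.0456, limma), which passed in 4 of 16 alternatives. *Tigar*, a fructose bisphosphatase that restrains glycolysis, fell by 0.29 ± 0.04 per day (adjusted p = 0.00362, limma), from 9.36 untreated to 8.04 at 4 d and from 8.87 untreated to 6.63 and 6.74 at 6 and 8 d; 2 of its 3 probe sets fell and the other had a slope above 0. *Zfp365*, a genome stability gene, had a slope of -0.22 ± 0.06 (adjusted p = 0.054, limma). The count of targets that rose was 0 without the second untreated array, 1 without 4 d or 6 d and 2 without 1, 2 or 3 d. The count that fell was 0 without the second untreated array, 2 without 3 d and 4 without 8 d, and the count higher by the step was 0 without any one of 3, 4, 6 or 8 d or either untreated array and 1 without 2 d. The count lower by the step was 1 without 1 d or without the first untreated array.

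**Figure D4:**
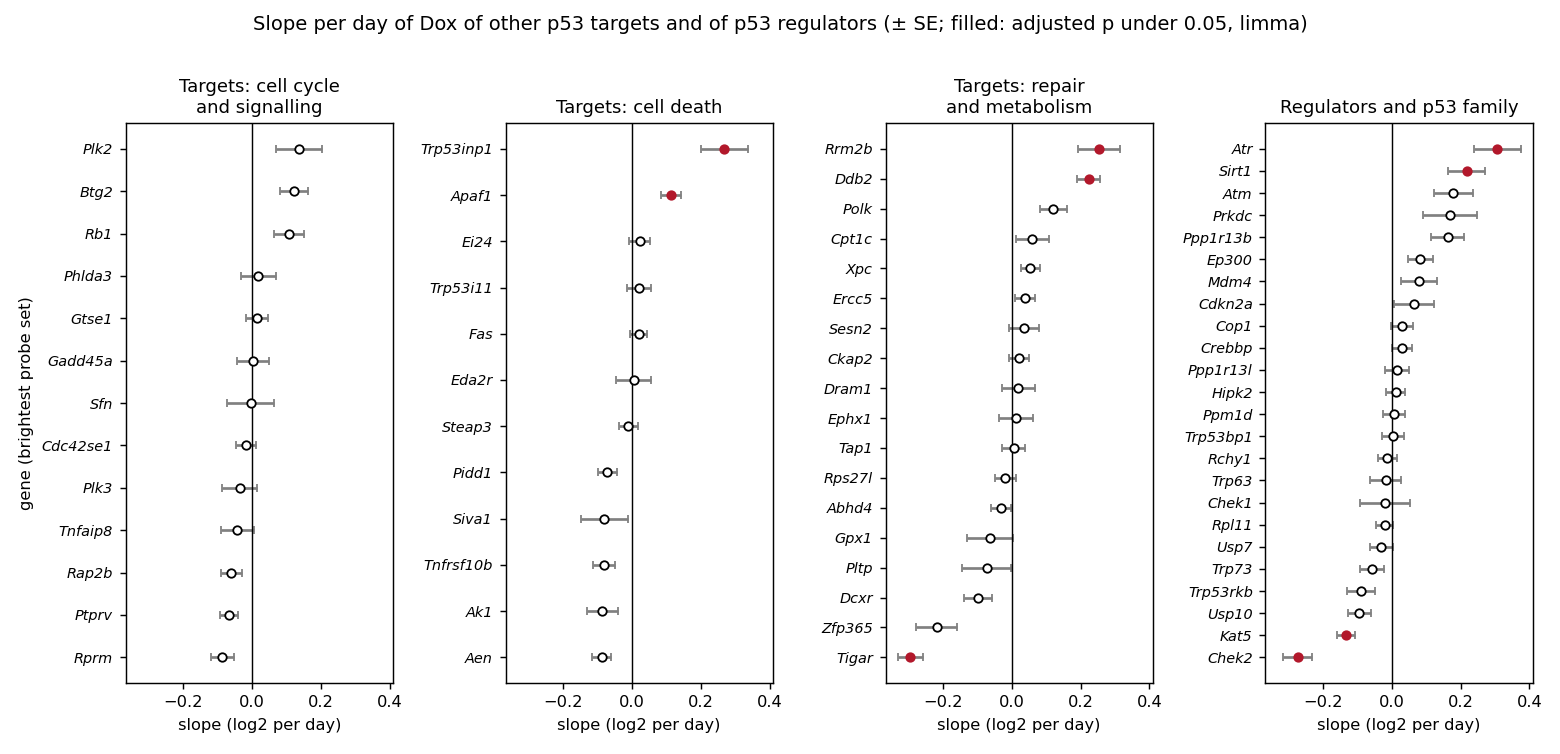
Slope of log2 signal per day of Dox (x axes, estimate ± SE from limma over the 8 LIF+serum arrays) for 43 other p53 targets in 3 panels and for 22 p53 regulators with the relatives *Trp63* and *Trp73* in the last panel, each gene by its brightest probe set; filled points have an adjusted p under 0.05. *Trp53inp1*, *Apaf1*, *Rrm2b*, *Ddb2*, *Atr* and *Sirt1* are filled on the right of 0 and *Tigar*, *Chek2* and *Kat5* on the left.

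The genes whose signal over the 10 arrays was most like that of *Cdkn1a*, among 18193, were *Mtarc2* (Pearson's r = 0.987), *Sh2b1* (0.984) and *Cystm1* (0.983). The points share array sets and medium, in which *Cdkn1a* was highest, and the likeness is given as a description.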

How the data were processed

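Background subtraction and normalization were done by the authors with RMA in R (the submitters' processing notes also name affy; versions: not given in the sources used here), and log2 values were deposited. RMA narrows differences among weak signals, so folds of dim probe sets are likely understated. Of 45101 probe sets, 64 controls were left out, and 34945 of the other 45037 were paired by the platform annotation with 1 symbol (18193 genes); no symbol was changed by matching Entrez IDs of the listed genes to RefSeq, and probe sets with several symbols named no gene. Samples were grouped by their labels. The medium of the 8 arrays outside 2i was taken from the study's methods.

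From these values, limma 3.58.1 (lmFit and eBayes, R 4.3.3) fitted a slope per day of Dox and, separately, a step between Dox and untreated arrays to each probe set over the 8 LIF+serum arrays, with the array set as a covariate (5 residual degrees of freedom, and 4.81 and 4.27 prior), with a Benjamini-Hochberg threshold of 0.05 over the whole table. A fold is the ratio of a Dox array to its set's untreated array, computed from the log2 values. The number of arrays, not read depth, limits the precision. Other steps used Python 3.11.15, pandas 2.3.3, numpy 2.4.6 and matplotlib 3.10.9, and the fits were tested on simulated data.

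The 10 genes and the lists of regulators, other targets and markers were chosen with earlier results of these data known. Besides the 10 genes, the text names up to 10 other targets with the largest slopes among those past the slope test, up to 5 more past the step test, 4 that passed neither, 6 regulators or relatives and the 3 genes most like *Cdkn1a*; *Mdm4*, *Fas* and some markers were named outside this rule after their values were seen. Alternatives left out the array set term, replaced the day by log2(day + 1), kept only the 21646 probe sets that reached 6 (log2), normalized by quantiles again, took the mean of a gene's probe sets, used robust eBayes with a trend, added the beta-actin 3′ to 5′ ratio, left out each array in turn or changed the untreated reference. Fits to either array set alone and the interaction were added after the data were seen.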

Additional observations from a re-analysis of the deposited data

Results flagged for a closer look

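The single 2i+LIF pair moved opposite to all 6 Dox arrays in LIF+serum for 16 of the 41 genes named above. For 13 of them, the log2 difference after 6 d of Dox in 2i+LIF was below 0 where every LIF+serum difference was above it, as for 5.92% of all genes. It was -0.38 for *Mdm2*, -1.30 for *Ccng1* and -1.33 for *Pmaip1*. Among the other targets it was -0.70 for *Trp53inp1*, -0.14 for *Rrm2b*, -0.0203 for *Apaf1*, -0.53 for *Polk* and -0.67 for *Rb1*. Among the regulators it was -0.26 for *Atr*, -0.15 for *Atm*, -0.85 for *Prkdc*, -0.43 for *Sirt1* and -0.65 for *Mdm4*. The reverse, below the untreated array on all 6 LIF+serum arrays and above it in 2i+LIF, held for 3, with 0.26 for *Tigar*, 0.10 for *Utf1* and 0.76 for *Lin28a*, and for 10.7% of all genes. With 1 array on each side in 2i+LIF, a value near 0, such as that of *Apaf1*, has no order. Many of the named genes were picked for their change in LIF+serum, so their share is not comparable with that of all genes. The limma interaction term passed for none of these genes at the adjusted threshold.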

How the results depend on the processing

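No slope or step of the 8 genes changed direction in any alternative run. With 3 genes rising as reported, the count was 0 with the beta-actin ratio in the fit, 1 in the first set alone, and 0 to 3 with 1 array left out. With 1 gene higher by the step, it was 0 with the beta-actin ratio, in the first set alone or without the array set term, 2 in the second set alone, and 0 to 1 with 1 array left out. With the beta-actin ratio, 0 other targets rose, fell or were higher and 0 regulators rose or fell. Other targets that fell were 3 in the first set alone and 2 in the second, with log2(day + 1) or among probe sets reaching 6; those higher were 0 in the first set or without the set term and 1 by the mean of probe sets; those lower were 1 with eBayes trend and robust or the mean of probe sets, 3 among probe sets reaching 6 and 2 in the second set. Regulators that rose were 4 in the first set or without the set term and 1 by the mean; those that fell were 0 in the first set and 1 in the second. With 1 array left out, other targets numbered 0 to 4 rising, 0 to 4 falling, 0 to 4 higher and 0 to 1 lower, and regulators 0 to 4 rising and 0 to 2 falling. Read against the other set's untreated array, all 48 single-time differences of the 8 genes moved, by construction by the gap between the untreated arrays. Each Dox time is 1 array, and the beta-actin ratio was highest at the last 2 times, where the *Gapdh* ratio was below that of the untreated array.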
